A study of Mus musculus with 6 samples.

Results

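Transcripts of haem synthesis were followed in primary megakaryocytes, the platelet-forming cells of the blood, that carry or lack p45. p45, encoded by Nfe2, pairs with a small Maf protein to form the transcription factor NF-E2. The 9 genes were given by name as the haem synthesis enzymes and 1 mitochondrial transporter linked to them, and were not chosen by their values here. They are Alas1, Alas2, Alad, Uros, Urod, Cpox, Ppox, Fech and Abcb10, out of 18210 genes tested. The array read them with 11 of its 41174 probes, and every one of the 11 was well above background on all 6 arrays. All 9 genes therefore entered the test, and the filter on dim probes removed none of them.

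The samples were cultured from mouse fetal livers at E13.5 (the embryonic age in days), on the C57BL/6 strain. One group was p45-/- and the other WT, with 3 arrays each, and the series' design speaks of independent experiments. The labels used here do not say how the p45 allele was made, how long the cultures ran or how many fetuses gave each one, so p-values measure the spread between these 3 samples a group. The field for the source names cultured megakaryocytes, while the extraction text names whole embryos, and this was not resolved. The targeted gene did not separate the labels. Nfe2 was at log2 levels of 4.87, 6.43 and 6.34 on p45-/- arrays 1 to 3 and of 5.24, 6.57 and 6.33 on WT arrays 1 to 3, relative to the 75th percentile of the array. Whether its probe lies in the deleted stretch is not given in the sources used here, so it checks nothing, and p45-/- below means the arrays so labelled. All 14 megakaryocyte markers tested were well above background on all 6 arrays.

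Haem is built in steps that begin and end in the mitochondrion. An aminolevulinate synthase joins glycine to succinyl-CoA, and this first step limits the rate of the pathway. Vertebrates have a synthase for most tissues, encoded by Alas1, and an erythroid synthase, encoded by Alas2, which supplies haem for haemoglobin. The intermediates then pass through cytosolic enzymes, and the product returns to the mitochondrion, where ferrochelatase inserts iron. The genes are described below in the order of the pathway.

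The upstream sequence of both synthase genes and of Cpox is shown because Alas2 had by far the largest difference of the 9, Alas1 is its isozyme, and Cpox shares a motif position with Alas2. Each line gives the 250 bases before the RefSeq start site in assembly GRCm38.p6, 5′ to 3′ in the direction of the gene. Capitals mark the letters GATAA (the core of sites of GATA factors) and CACCC (the core of sites of KLF factors), each on either strand. TGACTCA, the core of NF-E2 and AP-1 sites, was searched on both strands as well. None of the 3 motifs overlapped another in these windows. The Alas2 window is chrX:150547167-150547416 on the plus strand, the Alas1 window is chr9:106247955-106248204 on the minus strand and the Cpox window is chr16:58669958-58670207 on the plus strand.
Alas2: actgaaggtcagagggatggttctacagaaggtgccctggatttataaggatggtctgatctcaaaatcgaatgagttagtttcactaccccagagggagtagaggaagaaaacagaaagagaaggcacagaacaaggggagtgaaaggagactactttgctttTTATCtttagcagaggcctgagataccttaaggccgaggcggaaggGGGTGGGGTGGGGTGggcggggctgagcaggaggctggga
Alas1: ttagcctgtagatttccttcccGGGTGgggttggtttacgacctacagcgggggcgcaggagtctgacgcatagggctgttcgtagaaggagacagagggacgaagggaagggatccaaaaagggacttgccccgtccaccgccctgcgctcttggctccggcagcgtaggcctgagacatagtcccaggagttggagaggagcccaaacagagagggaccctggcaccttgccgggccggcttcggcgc
Cpox: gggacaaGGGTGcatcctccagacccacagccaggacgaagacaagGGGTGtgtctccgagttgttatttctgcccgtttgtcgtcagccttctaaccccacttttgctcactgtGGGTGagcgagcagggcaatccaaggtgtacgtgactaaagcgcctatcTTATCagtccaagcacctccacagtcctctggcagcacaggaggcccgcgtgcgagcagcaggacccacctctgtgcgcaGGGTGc

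The Alas2 window held GATAA on the reverse strand at -86 to -82 from the start site and 3 copies of CACCC on the reverse strand between -40 and -26. The Cpox window held GATAA on the reverse strand at the same distance, -86 to -82, and 4 copies of CACCC. The Alas1 window shown held no GATAA and 1 CACCC. RefSeq windows were given for 8 of the 9 genes, 11 windows in all because some genes have more than 1 start, and the entry of Fech was missing. GATAA lay in 3 of the 11 windows (those of Alas2 and Cpox and 1 of Uros), against 22.6% of all 32851 windows of this length. CACCC lay in 6 of the 11, against 52.0%, and 6.92% of all windows held 3 or more copies. How many windows hold GATAA at -86 to -82 was not counted. TGACTCA lay in 0 of the 11, against 4.46% of all windows. A match describes letters and is not a bound site.

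At the entry to the pathway the 2 synthase genes differed in opposite directions in group mean. Alas2 was 20.5-fold higher in the arrays labelled p45-/-, and it ranked 2 of 18210 genes from the highest difference downwards. Alas1 was 1.31-fold lower, within the spread of the arrays. Among the later enzymes every difference was under 2-fold. By limma with Benjamini-Hochberg adjustment over all genes tested and a threshold of 0.05, 0 of the 9 genes passed, as did 0 of all 18210 genes (0%). A fit that blocks on replicate number passed 5 of all genes (0.0275%) and again 0 of the 9. At an unadjusted p under 0.05 there was 1 higher gene among the 9, Alas2, against 2.62% of all genes, and 0 lower, against 3.33%.

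Levels below are log2 processed signals minus the 75th percentile of the array, so a level of 0 is as bright as that percentile. They are not compared between genes, because probes differ in brightness for reasons other than abundance. Differences are p45-/- minus WT. The plot of levels by array shows all 6 values of each gene.

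**Figure D1:**
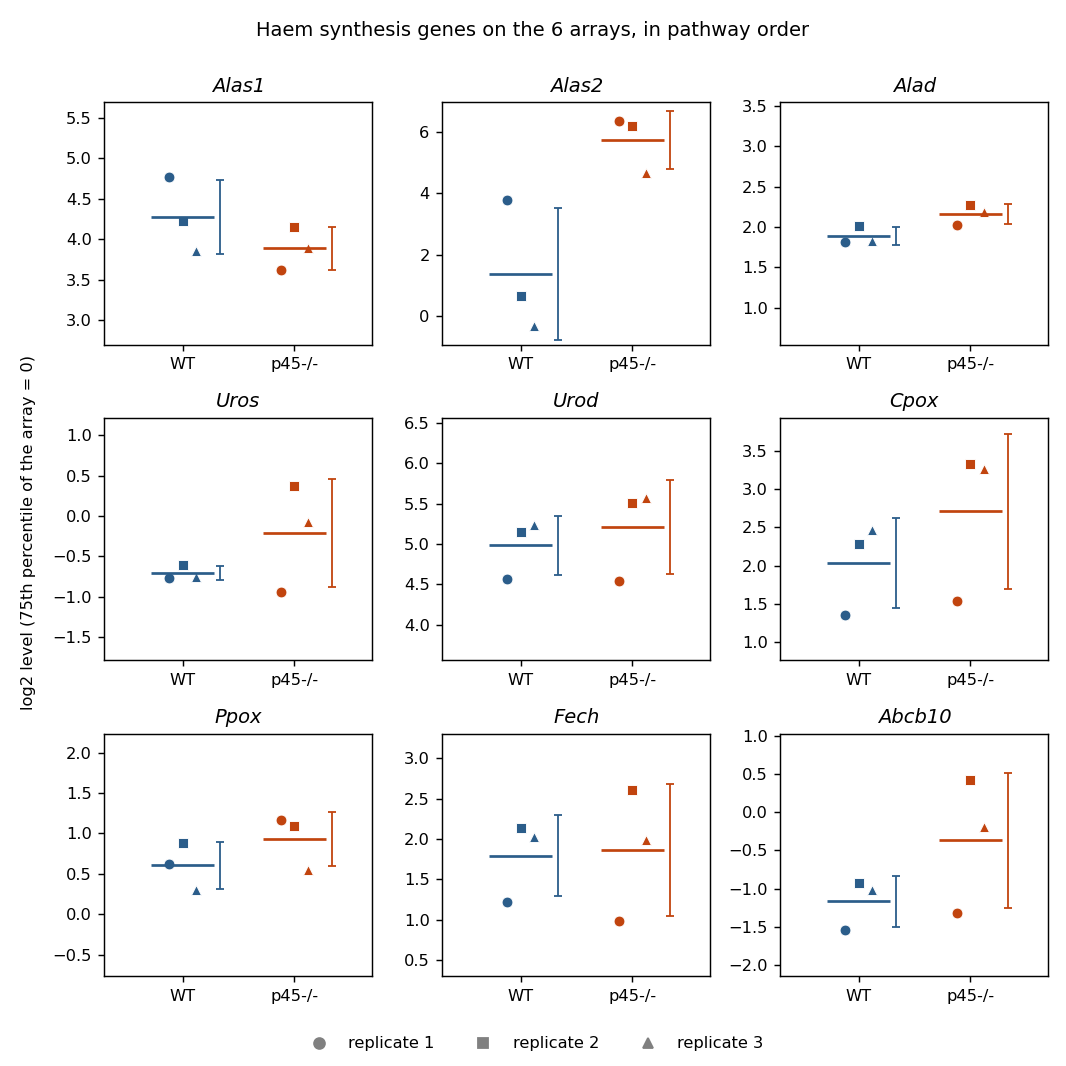
Each panel shows 1 gene on its own scale, with the log2 level on the y axis (75th percentile of the array = 0) and WT and p45-/- on the x axis. Points are arrays, symbols are replicate numbers, horizontal bars are means and vertical bars are ± 1 SD (n = 3); in the Alas2 panel the p45-/- arrays lie between 4.66 and 6.35 and the WT arrays between -0.32 and 3.79.

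Alas2, the erythroid synthase, had log2 levels of 6.35, 6.20 and 4.66 on p45-/- arrays 1, 2 and 3. On WT arrays 1, 2 and 3 they were 3.79, 0.67 and -0.32. Each p45-/- array lay above every WT array, and WT array 1 stood well above the other WT arrays. Before scaling, the processed signals of the probe were 11075, 29890 and 14873 on the p45-/- arrays. On the WT arrays they were 4686, 926 and 461, so the groups did not overlap on this scale either. The means were 5.74 ± 0.94 (SD, n = 3) and 1.38 ± 2.14 (SD, n = 3). The difference was 4.36 (95% interval 1.76 to 6.95, SE 1.08 and limma adjusted p = 0.508), and 0.0705 was the limma adjusted p with the replicate block. An exact permutation test, two-sided, gave p = 0.1, the smallest p that 3 arrays against 3 allow. By replicate number the differences were 2.57, 5.53 and 4.98, higher in 3 of 3 pairs. Without WT array 1 the difference was 5.56 (limma adjusted p = 0.176), and without p45-/- array 1 it was 4.05. With array weights it was 5.30 and passed (limma adjusted p = 0.0257), as did 504 of all 18210 genes in that fit. The weights were lowest for p45-/- array 1 (0.098) and WT array 1 (0.40). They were highest for WT array 3 (4.32), the array with the lowest Alas2 level. The Alas2 difference was large and uneven in size, and it did not pass over all genes in the fit without weights. In these bulk cultures, more cells that express a gene and more RNA per cell cannot be told apart.

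Alas1, the synthase of most tissues, had log2 levels of 3.62, 4.15 and 3.89 on p45-/- arrays 1 to 3, and of 4.76, 4.22 and 3.85 on WT arrays 1 to 3. The groups overlapped, and the highest value belonged to WT array 1. Its difference was -0.39 (95% interval -1.22 to 0.44, SE 0.35 and limma adjusted p = 0.727). A second, dimmer Alas1 probe gave -0.28 (SE 0.34, limma adjusted p = 0.786 over all probes). Most of the difference came from the arrays numbered 1, where it was -1.14, while it was -0.068 and 0.036 for numbers 2 and 3. The difference was -0.15 without WT array 1, -0.26 without p45-/- array 1 and -0.60 without WT array 3.

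The synthases were also compared within each array, where the scaling of the array drops out. Alas2 minus Alas1 was 2.73, 2.05 and 0.77 on p45-/- arrays 1 to 3. It was -0.98, -3.55 and -4.17 on WT arrays 1 to 3. These values do not rank the abundance of the transcripts, since the probes differ, but their shift between groups is a measure of unequal change. The shift was 4.75 on the log2 scale, a 26.9-fold change of the ratio, and the groups did not overlap. With the second Alas1 probe it was 4.64. An exact permutation test gave p = 0.1 for either probe, two-sided, again the smallest possible.

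**Figure D2:**
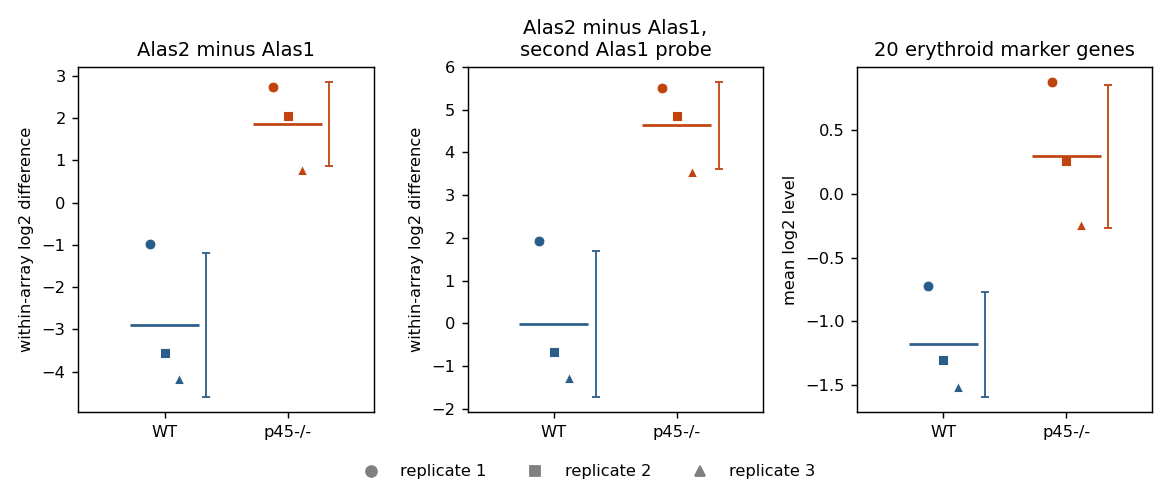
The left and middle panels show the log2 difference of Alas2 minus Alas1 within each array, for either Alas1 probe, and the right panel shows the mean log2 level of 20 erythroid marker genes. Points are arrays with symbols for replicate numbers, horizontal bars are means and vertical bars ± 1 SD (n = 3); in each panel the 3 p45-/- arrays lie above the 3 WT arrays, and within a group replicate 1 is highest and replicate 3 lowest.

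The next enzymes work in the cytosol. Alad, the dehydratase that joins 2 aminolevulinates into porphobilinogen, was at 2.02, 2.27 and 2.19 on p45-/- arrays 1 to 3. On WT arrays 1 to 3 it was at 1.82, 2.02 and 1.83. Here too the groups did not overlap, but the lowest p45-/- array exceeded the highest WT array only in the third decimal of the log2 level. The difference was 0.27 (95% interval -0.36 to 0.90, SE 0.26 and limma adjusted p = 0.740). Alad varied least of the 9 genes, over a range of 0.45 across the 6 arrays, against 6.67 for Alas2. Alas2 and Alad were the 2 members of 9 with higher groups that did not overlap, against 4.77% of all genes, and 0 members had lower groups without overlap, against 8.43%.

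Uros, the synthase that closes the tetrapyrrole ring, was at -0.95, 0.37 and -0.070 on p45-/- arrays 1 to 3. Its WT values were closely grouped at -0.76, -0.61 and -0.75. The p45-/- arrays lay on both sides of the WT arrays. The difference was 0.49 (95% interval -0.45 to 1.44, SE 0.39 and limma adjusted p = 0.716), and it was 0.86 without p45-/- array 1 and 0.20 without p45-/- array 2. Urod, which removes carboxyl groups from the ring, was at 4.54, 5.51 and 5.57 on p45-/- arrays 1 to 3 and at 4.56, 5.14 and 5.24 on WT arrays 1 to 3. Arrays 2 and 3 of p45-/- were the brightest of the 6, and array 1 was the dimmest. The difference was 0.23 (95% interval -0.73 to 1.18, SE 0.40 and limma adjusted p = 0.852). Leaving out single arrays took it from 0.017 without WT array 1 to 0.56 without p45-/- array 1, with 0.045 without p45-/- array 3, 0.075 without p45-/- array 2 and 0.36 without WT array 3.

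The last steps are mitochondrial. Cpox, coproporphyrinogen oxidase, was at 1.54, 3.33 and 3.27 on p45-/- arrays 1 to 3 and at 1.36, 2.29 and 2.46 on WT arrays 1 to 3. It was higher in p45-/- in each of the 3 same-numbered pairs, by 0.18, 1.04 and 0.80, although the groups overlapped. The difference was 0.67 (95% interval -0.73 to 2.08, SE 0.59 and limma adjusted p = 0.723), and it was 1.26 without p45-/- array 1, 0.37 without p45-/- array 2, 0.40 without p45-/- array 3 and 0.34 without WT array 1. Ppox, protoporphyrinogen oxidase, was at 1.16, 1.09 and 0.55 on p45-/- arrays 1 to 3. On WT arrays 1 to 3 it was at 0.63, 0.88 and 0.30. It was likewise higher in all 3 pairs with overlapping groups, and the difference was 0.33 (95% interval -0.44 to 1.10, SE 0.32 and limma adjusted p = 0.740). It was 0.18 without WT array 3, 0.22 without p45-/- array 1 and 0.52 without p45-/- array 3.

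Fech, ferrochelatase, which inserts the iron, was at 0.99, 2.61 and 2.00 on p45-/- arrays 1 to 3 and at 1.22, 2.13 and 2.03 on WT arrays 1 to 3. The ranges of the groups covered each other almost wholly. The difference was 0.072 (95% interval -1.13 to 1.27, SE 0.50 and limma adjusted p = 0.965), and its sign turned with median scaling (-0.44). It was -0.30 without p45-/- array 2, -0.22 without WT array 1 and 0.51 without p45-/- array 1. A second, dimmer Fech probe gave a larger value, 0.47 (SE 0.36, limma adjusted p = 0.713 over all probes), with p45-/- levels of 0.67, 1.44 and 0.76 and WT levels of 0.0049, 0.75 and 0.71. The probes of Fech therefore disagreed in size, but neither difference passed.

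Abcb10, a transporter of the inner mitochondrial membrane that erythroid cells need for haemoglobin production, was at -1.32, 0.42 and -0.20 on p45-/- arrays 1 to 3. On WT arrays 1 to 3 it was at -1.55, -0.92 and -1.02. It was higher in p45-/- in all 3 pairs, by 0.22, 1.34 and 0.83, and p45-/- array 1 was the value that made the groups overlap. The difference, 0.80 (95% interval -0.39 to 1.98, SE 0.49 and limma adjusted p = 0.704), was the second largest of the 9 genes. Without p45-/- array 1 it was 1.28, and without p45-/- array 2 it was 0.40.

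**Figure D3:**
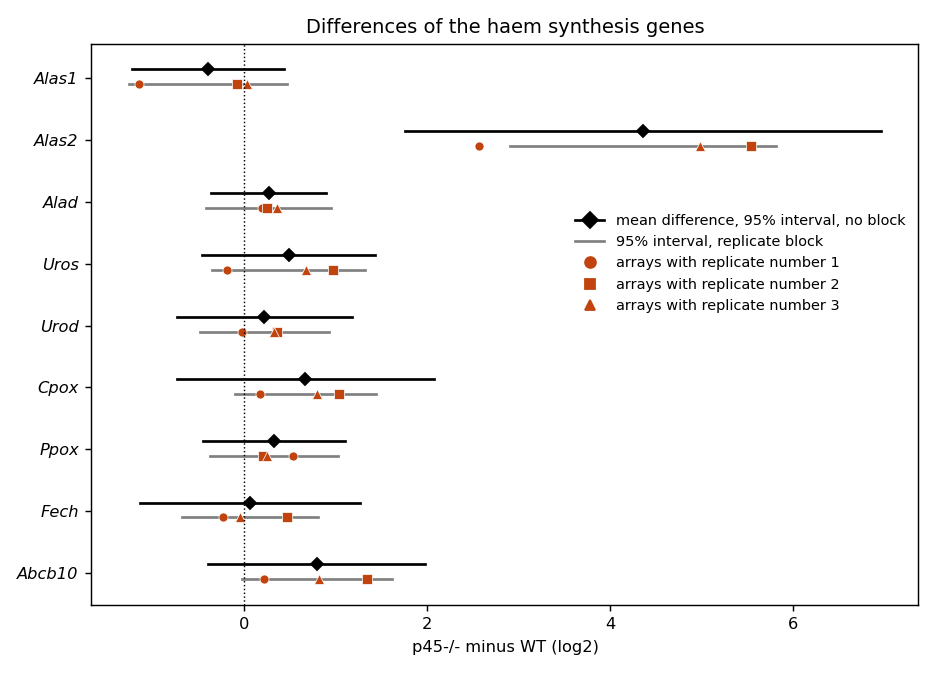
Differences of the 9 genes, p45-/- minus WT on the log2 scale (x axis), in pathway order (y axis). Diamonds with black lines are means with 95% intervals from limma without a block, grey lines are 95% intervals with the replicate block, and coloured symbols are differences of same-numbered arrays; Alas2 lies at 4.36 with an interval of 1.76 to 6.95, and the intervals of the other 8 genes cover 0.

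As a group, 8 of the 9 genes were higher in group mean in p45-/-, with a median difference of 0.33, but 3 of the 9 were higher with median scaling. The median was 0.56 without p45-/- array 1 and 0.22 without p45-/- array 2. Over all genes tested 46.5% were higher and the median was -0.048. The median of the 9 genes was 0.18, 0.48 and 0.36 for replicate numbers 1, 2 and 3, against -0.37, 0.12 and 0.064 for all genes. Scaling to the median of each array moved the median of all genes to -0.56 and that of the 9 genes to -0.18, which leaves the 9 genes 0.38 above all genes under either scaling. With no filter on dim probes they lay 0.031 above all genes. No difference between the 9 genes and the rest was tested.

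The arrays of replicate number 1 shaped several of these values. Alad, Uros, Urod, Cpox, Fech and Abcb10 had their lowest level on array 1 in both groups, 6 of the 9 genes, whereas Alas2 had its highest level there in both groups. Before scaling, the 75th percentile ran from 135 to 589 in processed signal on the p45-/- arrays and 339 to 583 on the WT arrays, and array 1 was the lowest of either group. Over the genes tested, p45-/- array 1 correlated at 0.782 to 0.884 with the others, while the closest pair of arrays reached 0.984. Without p45-/- array 1 the groups were apart for 6 of the 9 genes (Alas2, Alad, Uros, Urod, Cpox and Abcb10), all higher, against 15.8% of all genes that were then higher without overlap. The part of array quality in these values was not tested.

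Erythroid marker genes other than the 9 were mostly higher in p45-/-, as Alas2 was. Of 20 tested, 18 were higher in group mean, with a median difference of 1.61, and 0 passed over all genes. Add2, Ermap, Epb42 and Rhag entered the test only through the p45-/- arrays, where they are high, so their direction was partly set by the filter. Of the 16 genes well above background on all 6 arrays, a restriction chosen after seeing the data, 14 were higher, with a median of 1.43, against -0.094 over all 15634 such genes. In 6 of the 16 every p45-/- array was above every WT array, against 4.13% of those genes. The mean log2 level of the 20 genes was 0.88, 0.26 and -0.24 on p45-/- arrays 1 to 3 and -0.72, -1.31 and -1.51 on WT arrays 1 to 3. The order of the arrays within either group was that of Alas2. The summed signal of the list, dominated by globin probes, ran from 438 to 2130 times the 75th percentile in p45-/- and from 378 to 834 in WT, so these ranges overlapped. Tmod1 (a tropomodulin), Trim10 and Add2 (beta adducin) had the smallest unadjusted p of the list. Tmod1 differed by 2.07 and Trim10 by 3.22. Add2 was not well above background on any WT array, so its WT level is only bounded, by the dimmest probe well above background on each array, and it was at least 3.41-fold higher in p45-/-. Of the defining markers, the membrane protein genes Slc4a1, Epb42 and Rhag differed by 1.60, 1.93 and 2.26 and the transcription factor gene Klf1 by 2.32, and 2 of the 20 genes of the list were lower in group mean. Each of these 4 defining markers was well above background on at least 2 arrays of either group. The part of erythroid cells in the Alas2 value was not tested.

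Markers of other cell types differed between groups as well. Of 14 megakaryocyte markers 12 were lower, with a median of -0.48, but the median ran from -0.90 without WT array 1 to 0.011 without p45-/- array 1, where 7 of 14 were lower. Among them Gp6, Clec1b and Selp, genes of platelet adhesion receptors, differed by -6.09, -4.53 and -2.83. All 10 liver markers tested, of 14 listed, were higher (9 of 10 with median scaling), with a median of 1.07. This median was 0.55 without p45-/- array 3, 0.55 with median scaling and -0.17 for replicate number 1 alone. Of the listed liver genes not tested, Ttr and Hnf4a did not pass the filter on dim probes, and Cps1 and Serpina1a were not found by name. The direction below is that of the tested liver markers only. The mean log2 level of the 10 tested ran from -0.13 to 1.56 in p45-/- and from -0.91 to 0.14 in WT. The liver genes Apob, Apoh and Apoa1 differed by 1.19, 1.27 and 1.23. Of 8 macrophage markers 5 were higher (median 0.51, with Timd4 at 1.56, Vcam1 at 1.10 and Mrc1 at 0.70). Timd4 entered the test only through the p45-/- arrays, where it is high, so its direction was partly set by the filter. Of the 7 macrophage markers well above background on all 6 arrays, 4 were higher, with a median of 0.33. The median of all 8 was 0.0010 with median scaling, and it ran from 0.013 without WT array 3 to 0.88 without WT array 1. Of 11 mast cell and neutrophil markers 8 were lower (median -0.81, with the neutrophil genes Ctsg at -1.26, Elane at -1.23 and Mpo at -0.81). The 3 higher ones were mast cell genes, Fcer1a at 0.78 without overlap of the groups, Tpsb2 at 0.66 and Cma1 at 0.52, while the mast cell genes Cpa3 and Ms4a2 were at -1.16 and -0.94. These 5 were named after their values were seen. Tpsb2 entered the test only through the p45-/- arrays and Ms4a2 only through the WT arrays, in each case the group where it is higher. Of the 9 mast cell and neutrophil markers well above background on all 6 arrays, 2 were higher, with a median of -0.81. None of the markers of this paragraph passed over all genes without a block, and with the replicate block Gp6 and Clec1b did.

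**Figure D4:**
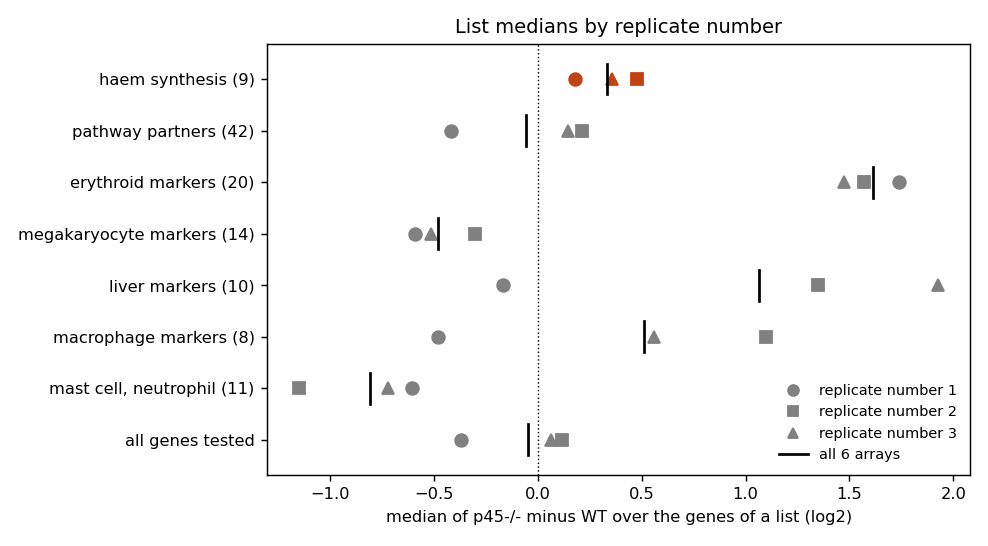
The x axis gives the median difference (p45-/- minus WT, log2) over the tested genes of each list, whose number stands in brackets on the y axis. Symbols are differences of same-numbered arrays and black ticks are values from all 6 arrays; the haem synthesis genes lie at 0.18 to 0.48, the erythroid markers at 1.47 to 1.74 and all genes at -0.37 to 0.12.

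Genes that work beside the enzymes were mixed in direction. Of 42 tested partners of the pathway, 20 were higher and 22 lower, with a median of -0.057, close to that of all genes, and 0 passed. Leaving out p45-/- array 1 gave 30 higher with a median of 0.15, and leaving out p45-/- array 2 gave 12 higher with a median of -0.19. The direction of these lists also moved with the scaling, since the median of all 42 was -0.57 with median scaling and 0.17 with quantile normalization. The values that follow are for the 75th percentile and all 6 arrays. Of 9 mitochondrial carriers and transporters of precursors, 6 were higher (median 0.18). Among them Slc25a37, the mitochondrial iron importer, differed by 0.91 (limma adjusted p = 0.704), with differences of 1.68, 0.41 and 0.63 for replicate numbers 1, 2 and 3. Tspo, a protein of the outer mitochondrial membrane that binds porphyrins, differed by -1.24 and was lower in 3 of 3 pairs. Of 9 genes of iron-sulphur cluster assembly, 5 were higher (median 0.0089). Of 9 regulators 3 were higher (median -0.15). Ppargc1a, 1 of these 3, entered the test only through the p45-/- arrays, where it is high, so its direction was partly set by the filter. Of the 8 regulators well above background on all 6 arrays, 2 were higher, with a median of -0.20. Over all 41 partners well above background on all 6 arrays, 19 were higher, with a median of -0.062. Klf1, the erythroid transcription factor of the marker list, differed by 2.32, whereas Gata1, a regulator of Alas2, differed by -0.26 (SE 0.50) and Bach1, a haem-binding repressor, by -0.50.

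Of 9 haem carriers and exporters tested, 6 were higher (median 0.36), with Hebp2 at 1.30 and Hpx, the plasma haem scavenger haemopexin, at 0.92. All 6 genes of haem breakdown and haem A synthesis were lower in group mean (median -0.23), though 2 of the 6 were higher with quantile normalization or without p45-/- array 1. In that set Blvrb, a biliverdin reductase, differed by -0.75 without overlap of the groups, and Hmox1, the inducible haem oxygenase, by -0.062 (limma adjusted p = 0.983). The naming rule covered Klf1, Hpx, Hebp2, Tspo, Blvrb and Bach1, and Slc25a37, Ppargc1a, Gata1 and Hmox1 were chosen after their values were seen.

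The profiles of the 9 genes over the arrays were also compared. Each gene was centred on its mean over the 6 arrays, and the root mean square of the differences between profiles was taken as their distance. The closest members were Fech and Urod at 0.25, Abcb10 and Uros at 0.26, Alad and Ppox at 0.26, and Abcb10 and Cpox at 0.26. The distance of Alas2 to another member was at least 2.37, reached with Ppox. Profiles were not scaled, so a distance depends on the size of a gene's range as well as on its shape. Alas2 had the widest range over the 6 arrays, 6.67, and Cpox the next, 1.97. Among 12940 other genes with a symbol, the closest to Alas2 were Gpr83, Pramel4 and Vmn1r218 at 0.91, 1.02 and 1.08, against a median distance of 2.66. For the other 8 genes the closest gene lay at 0.038 to 0.080. Abcb10 was closest to Psrc1, Tfrc (the transferrin receptor) and Echdc3 at 0.080, 0.10 and 0.13. Cpox was closest to Il6, Pde10a and Ptger3, and Fech to Rgs12, Gypc (glycophorin C) and AA986860. These distances describe 6 arrays that share slides and groups.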

How the data were processed

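Total RNA was amplified, labelled with Cy3 and hybridised to single-colour Agilent arrays, 1 per sample, per the labels' protocols. Per the file headers, Agilent Feature Extraction 10.7.3.1 made the processed intensity, the value used for each spot, which had not been scaled between arrays. The submitters' processing notes name version 10.1. The series' value table, as deposited, held the same intensities rounded (largest difference 0.497%, column medians 20.9 to 42.0).

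Control spots were dropped, spots with outlier flags (32 to 80 an array) set to missing and spots of a probe averaged as log2. Each array's 75th percentile over probes was subtracted. Probes well above background on all arrays of a group were kept, 23957 of 41174, and a gene was read by its brightest probe. Names came from RefSeq accessions (GRCm38.p6, 26690 probes named). The test was limma's moderated test (lmFit, eBayes; version 3.58.1, run under R 4.3.3). P-values were two-sided and adjusted by Benjamini-Hochberg over 18210 genes. It was tested on simulated data with the spread of these arrays, independent noise and known differences of 1 or 2 in log2, up or down. The size of these differences was recovered, but none of the changed genes passed. A gene that misses the threshold here is thus not shown to be unchanged. Larger differences, such as that of Alas2, and correlated arrays were not simulated. Deviations of same-numbered arrays from their group means correlated at 0.647, 0.589 and 0.270, all above 0.1. Replicate numbers were therefore taken as a block in an alternative fit, from the data only. Unlike-numbered arrays were not compared, and the arrays numbered 1 had the lowest 75th percentile of either group. These correlations therefore do not show that the samples were paired, and pairs here means arrays of the same number. Slide 1 held the arrays numbered 3 and slide 2 the rest, each slide with its own scan. Members, lists and the naming rule were chosen with earlier results of these data known. The rule named all 9 members, the 3 partners in each direction and the 3 markers of each list with the smallest unadjusted p, and the 3 nearest profiles of each member, of which the text gives some. Some genes that the rule or the marker lists cover are not reported here by name. The number of arrays limits the precision.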

Additional observations from a re-analysis of the deposited data

How the results depend on the processing

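The count of 0 genes passing was 5 with the replicate block, 10 with median scaling, 504 with array weights, 1 with an intensity trend and robust prior, 0 to 1 leaving out single arrays (1 without WT replicate 1), and 18 with both replicate 1 arrays left out, an alternative chosen after seeing the data. Of the 9 genes, 1 passed with array weights (Alas2) and 0 under the other alternatives, the replicate block included. The block combined with median scaling, also added later, called 1589 genes with Alas2 among them, and with quantile normalization 0. Alas2 stayed between 3.51 and 5.56 over 19 alternatives. Among those alternatives its limma adjusted p ran from 0.0257 to 0.998. They do not include the block combined with another scaling. There the limma adjusted p of Alas2 was 4.3e-11 with median scaling and 0.242 with quantile normalization. Alas2 minus Alas1 stayed between 4.11 and 5.71 over 15 alternatives. Median scaling turned the signs of Alad (-0.24), Uros (-0.020), Urod (-0.28), Ppox (-0.18), Fech (-0.44) and of the median of the 9 genes (-0.18), as it lowered all genes. Alas1 was 0.036 within slide 1 and 0.013 with array weights. Fech was -0.035 within slide 1, -0.024 with normexp, computed from median spot signals, and -0.30 to 0.51 leaving out single arrays (below 0 without p45-/- replicate 2 or WT replicate 1). The members without overlap of the groups, 2 in all arrays, were 4 within slide 2 (Alas1 lower and 3 higher, against 18.6% of all genes lower and 10.8% higher), 1 with median scaling, 2 to 6 leaving out single arrays (6 without p45-/- replicate 1) and 6 with both replicate 1 arrays left out (all higher, against 34.7% of all genes). With fewer arrays more genes are without overlap by construction. Cpox and Abcb10 kept their sign under all 19 alternatives. The causes were not tested.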
